A study of Mus musculus with 577 samples.

Results

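The 6 genes described here are the oogenesins Oog1, Oog2, Oog3 and Oog4 and the oocyte-secreted protein genes Oosp1 and Oosp2. They were taken by symbol from every gene count table, as 6 of the 22060 protein-coding genes listed, and were chosen by their SC3-seq levels in earlier readings of these data, which were higher in oocytes of larger follicles and in granulosa cells beside the oocyte. For that reason the follicle-stage and single-cell position values below are descriptions without a test. The one measure tested is the level in pools of 10 granulosa cells.

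The study developed DRaqL, a lysis step that recovers RNA from stained tissue sections, and applied it to cells cut out one at a time by laser capture microdissection (LCM) from ovaries of 8-week-old female mice. The ovaries were snap-frozen, sectioned and fixed in alcohol, or in one set in formalin for 24 h. No strain, genotype or hormone treatment is given in the labels, which name no animal. The study states that the amplification methods it compared, DRaqL with SC3-seq among them, used sections of the same ovary. A total of 577 samples were deposited, of which 562 are gene count libraries and 15 are exon and junction libraries.

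Oocytes were labelled by follicle as primary or as secondary to early antral. The primary and larger follicles were represented by 14 and 30 oocytes with DRaqL and SC3-seq (a method that reads transcript 3′ ends), by 7 and 11 with the SMART-Seq v4 kit, by 6 and 9 with DRaqL before that kit, and by 5 and 7 after formalin with DRaqL, protease and Smart-seq2. A further 8 oocytes were sequenced as 2 serial sections each, in 16 libraries. In another experiment, a single mouse in proestrus gave 8 LCM oocytes from its frozen ovary and, from its other ovary, 14 grown oocytes that were dissociated fresh. The fresh cells, but not the frozen ovary, were handled in medium with dibutyryl-cAMP, a cAMP analog used against spontaneous activation of oocytes. Granulosa cells, the somatic cells that surround the oocyte, were labelled neighboring or non-neighboring by their place relative to the oocyte in the section or, for fresh cells, in the complex of oocyte and cumulus cells, and 161 neighboring and 169 non-neighboring single cells were compared in 8 sets. From SC3-seq, 1 neighboring and 2 non-neighboring cells that the study set apart for a profile mixed with that of oocytes were left out of these sets, and no such cells were left out of the other sets. Each position also had 7 pools of 10 cells, and 7 bulk granulosa samples and 81 single mouse embryonic stem cells (mESCs) cultured with GSK and MEK inhibitors and LIF completed the libraries. All levels are RPM, the reads of a gene after the protein-coding reads of its library are scaled to 1000000, given as log2 (RPM+1) unless stated.

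Oogenesins belong to the PRAME family, a group of leucine-rich repeat proteins that has expanded into large gene clusters in the mouse, and several of its members are transcribed in germ cells and early embryos. Oosp1 and Oosp2 encode small secreted proteins related to the placental protein PLAC1 and are transcribed in growing oocytes. While a follicle grows from the primary to the antral stage, the arrested oocyte enlarges and stores transcripts that serve meiosis and the first divisions of the embryo.

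In GRCm38 the 6 genes lie at 3 places. Oog1 is at chr12:87602688-87608850 on the plus strand. Oog2 (chr4:144190719-144196934, plus) and Oog3 (chr4:144157557-144162663, minus) stand 28.1 kb apart, and Oog4 (chr4:143437164-143450324, minus) lies 707 kb from Oog3. Oosp1 (chr19:11667460-11691150, minus) and Oosp2 (chr19:11647279-11660559, minus) are separated by 6.90 kb. No other annotated gene overlaps any of them. A second Oog4 entry of the tables, on a scaffold, held 0 reads over all libraries and was set aside.

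The last 60 coding bases are printed because most reads of these libraries come from the 3′ side of a transcript and because they show how close the oogenesins are to each other and how far from the Oosp genes. They were read from the GENCODE annotation on GRCm38, from 5′ to 3′, and the capitals mark the stop codon. The stretches are chr12:87608515-87608574 (plus) for Oog1, chr4:144196538-144196597 (plus) for Oog2, chr4:144157862-144157921 (minus) for Oog3, chr4:143437451-143437510 (minus) for Oog4, chr19:11667690-11667749 (minus) for Oosp1 and chr19:11647418-11647477 (minus) for Oosp2, each inside 1 exon.
Oog1: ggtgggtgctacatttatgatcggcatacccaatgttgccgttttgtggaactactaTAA
Oog2: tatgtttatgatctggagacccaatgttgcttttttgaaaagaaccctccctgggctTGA
Oog3: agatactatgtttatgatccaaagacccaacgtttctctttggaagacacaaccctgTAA
Oog4: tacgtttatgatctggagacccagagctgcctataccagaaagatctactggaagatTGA
Oosp1: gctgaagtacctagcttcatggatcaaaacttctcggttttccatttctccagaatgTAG
Oosp2: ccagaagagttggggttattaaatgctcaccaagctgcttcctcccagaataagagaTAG

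Over the whole coding sequence the oogenesins shared 74.1% (Oog2 and Oog4) to 81.5% (Oog1 and Oog3) of aligned bases, and Oosp1 and Oosp2 shared 59.4%. Some copies outside the 6 genes are far closer. Of the 1752 windows of 50 bases in the Oog1 transcript, 1695 (96.7%) also occur in the transcript of another gene, mainly Gm2042 (94.8%) and Gm10436 (62.3%). The share was 45.2% for Oog2, mainly with Gm13084 (40.7%), and 19.7% for Oog3, mainly with Gm4350 (18.9%). It was 0.792% for Oog4 and 0 for both Oosp genes. In the 221 libraries with at least 20 reads for Oog1 and Gm2042 together, the tables held 410673 reads for Oog1 and 431483 for Gm2042, and the read numbers of the pair differed by a median of 8.73% in a library. The study's methods count the best match of a read with HTSeq for the gene tables, and count reads that map to several places with featureCounts for the exon and junction tables. They do not say where a read went that matched 2 copies equally well, so the Oog1 values cannot be told apart from those of its near copies, and the Oog2 values are uncertain to a lesser extent.

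The 150 bases before each transcription start are shown next because the 4 oogenesin starts are alike there. The sequences are those of RefSeq on GRCm38.p6, on the strand of the gene. For Oog3 the window was moved upstream by 12 bases and for Oosp1 by 99 bases so that it holds no annotated transcript. Capitals mark matches on either strand to CANNTG (the E-box, bound by basic helix-loop-helix factors such as FIGLA and SOHLH1), to TAATTG (an element bound by NOBOX) and to TATAAA (the TATA box). The windows are chr12:87602515-87602664 (plus), chr4:144190567-144190716 (plus), chr4:144162664-144162813 (minus), chr4:143450325-143450474 (minus), chr19:11691151-11691300 (minus) and chr19:11660560-11660709 (minus), in the order printed.
Oog1: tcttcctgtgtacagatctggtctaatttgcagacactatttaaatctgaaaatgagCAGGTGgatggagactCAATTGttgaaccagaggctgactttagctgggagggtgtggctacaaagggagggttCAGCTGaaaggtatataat
Oog2: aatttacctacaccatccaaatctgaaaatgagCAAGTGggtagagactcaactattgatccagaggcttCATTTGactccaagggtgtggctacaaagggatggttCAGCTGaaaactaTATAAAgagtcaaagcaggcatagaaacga
Oog3: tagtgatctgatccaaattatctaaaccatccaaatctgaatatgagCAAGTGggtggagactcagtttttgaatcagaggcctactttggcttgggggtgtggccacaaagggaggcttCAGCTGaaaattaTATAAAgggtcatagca
Oog4: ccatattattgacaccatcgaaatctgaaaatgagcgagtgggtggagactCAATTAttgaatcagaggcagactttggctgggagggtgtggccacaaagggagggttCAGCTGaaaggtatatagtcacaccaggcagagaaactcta
Oosp1: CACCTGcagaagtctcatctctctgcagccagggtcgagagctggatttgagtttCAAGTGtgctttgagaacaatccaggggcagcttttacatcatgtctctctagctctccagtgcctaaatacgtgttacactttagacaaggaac
Oosp2: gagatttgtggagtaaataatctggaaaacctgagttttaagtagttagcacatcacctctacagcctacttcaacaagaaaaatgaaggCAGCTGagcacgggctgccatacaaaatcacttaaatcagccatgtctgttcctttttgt

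In the 250 bases before the start, CANNTG matched in 6 of 6 genes and in 66.2% of the 32851 RefSeq promoters, TAATTG matched in 2 of 6 (Oog3 and Oog4) and in 7.17%, and TATAAA matched in 2 of 6 (Oog2 and Oog3) and in 12.4%. The letters CAGCTG, looked at after the sequences were seen, occur in 5 of 6 genes and in 13% of promoters. The longest run common to the 4 oogenesin starts, ttcagctgaaa, has 11 bases and is found in 14 of the 32851 promoters (0.0426%), those of Gm2042 and 3 genes named Pramel among them. A match describes the letters and is no evidence that a factor binds there.

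Depth per gene count library ran from 12748 to 17506401 protein-coding reads with a median of 626534, and no pair of libraries was identical. The oocyte label was checked with 11 other oocyte genes (Zp2, Zp3, Gdf9, Bmp15, H1foo, Bcl2l10, Izumo1r, Obox1, Obox2, Obox3 and Obox5). Their summed level was 17624 RPM or more in each of the 30 SC3-seq oocytes from secondary-to-early antral follicles and 3616 RPM or more in each of the 14 from primary follicles. The summed level of 10 granulosa genes, such as Amh and Fshr, was at most 1078 and 1554 RPM in these groups.

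Every one of the 6 genes stood higher in oocytes of secondary-to-early antral follicles than in those of primary follicles in SC3-seq, by 4.50 to 5.79 in mean log2 (RPM+1). For comparison, 21.2% of the 20696 genes with reads were at least 1 log2 higher in the larger follicles, and the median difference over all genes was 0.04. These are the values that led to the choice of the genes. Complete separation of the stages, with the lowest oocyte of larger follicles above the highest primary oocyte, was found for 4 of the 6 genes and for 0.464% of all genes.

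Oog3 differed by 5.79, from 4.48 ± 1.56 (SD, n = 14) to 10.27 ± 0.76 (SD, n = 30), which ranked 5 among the 20696 genes. Its primary oocytes ran from 1.22 through a median of 4.84 to 6.83, and those of larger follicles from 7.39 through 10.57 to 11.05. The stages did not overlap.

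Oog4 had means of 2.64 ± 0.97 and 8.04 ± 1.18. It ran from 1.10 through 2.74 to 4.00 in primary oocytes and from 5.14 through 8.51 to 9.19 in the larger ones. Again no oocyte of one stage lay within the range of the other.

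For Oog2 the means were 4.33 ± 1.35 and 8.83 ± 0.90. The primary oocytes spread from 1.41 to 6.37 around a median of 4.52, and the others from 6.84 to 10.36 around 8.92. The gap between the stages was small but complete.

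The mean of Oog1 went from 5.04 ± 1.33 to 10.22 ± 1.59, with primary oocytes at 2.15 to 7.41 (median 5.06) and oocytes of larger follicles at 4.91 to 11.94 (median 10.63). Here the stages overlapped, since 28 of the 30 larger-follicle oocytes lay above every primary oocyte. Its near copies Gm2042 and Gm10436 differed by 5.14 and 5.01 and overlapped as well.

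Of the secreted proteins, Oosp1 went from 5.07 ± 0.88 to 10.53 ± 1.00 and ranked 12 by difference. Its primary oocytes lay within 3.88 to 6.43 (median 4.97) and the larger ones within 8.03 to 11.79 (median 10.83), without overlap.

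Oosp2 had the widest spread among primary oocytes, from 1.08 through 3.47 to 7.66 (mean 3.81 ± 2.01), and the narrowest among the larger ones, from 7.15 through 8.51 to 9.44 (mean 8.56 ± 0.65). Of the 30 larger-follicle oocytes, 29 were above the highest primary oocyte.

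**Figure D1:**
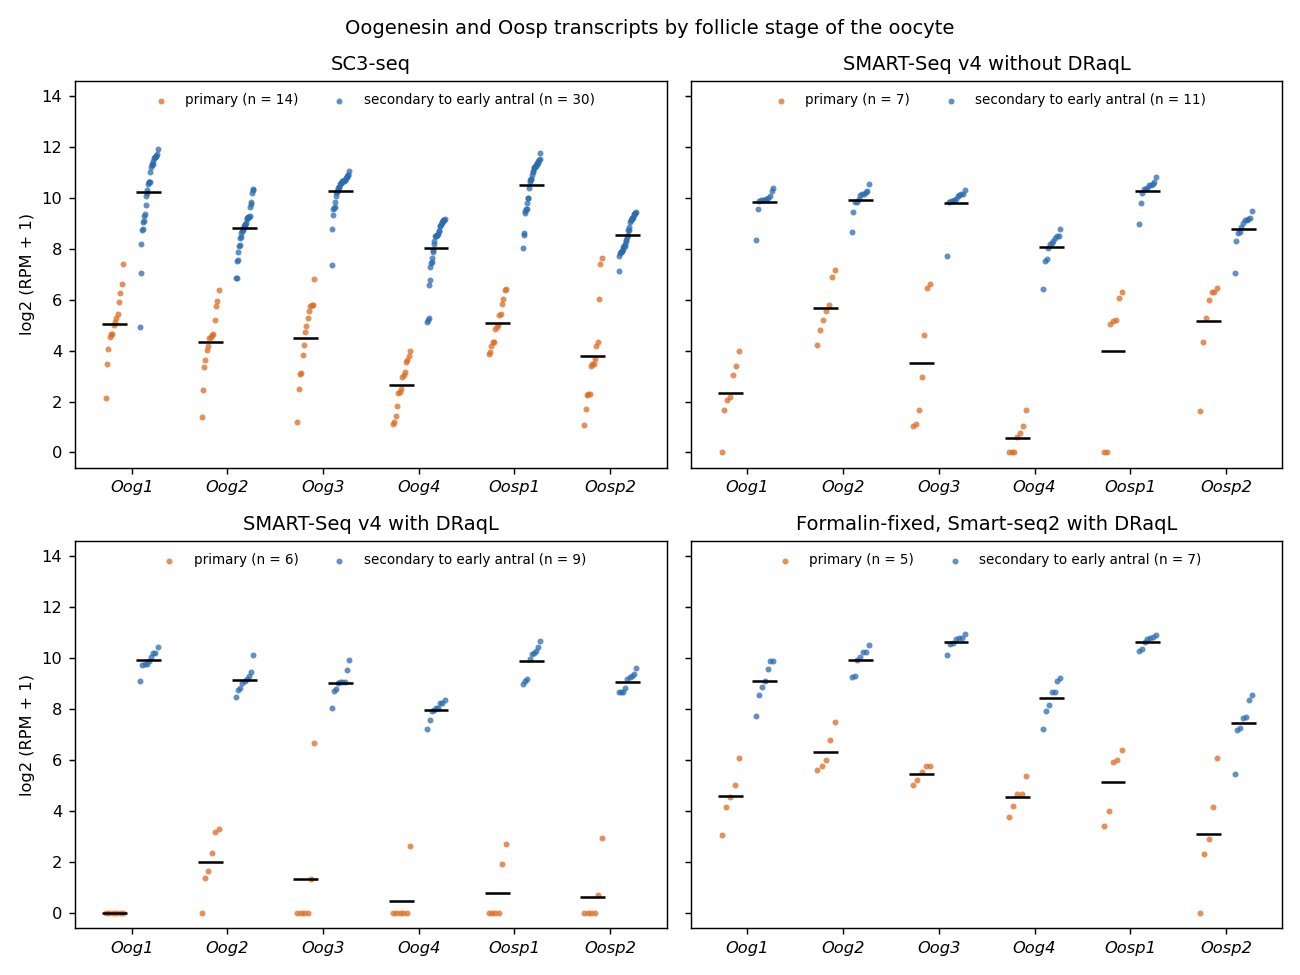
Levels of the 6 genes as log2 (RPM+1) (vertical axis) in each oocyte of primary and of secondary-to-early antral follicles in the 4 sets that hold both stages; points are oocytes and bars are means. In SC3-seq, Oog3 goes from a mean of 4.48 to 10.27 and Oosp1 from 5.07 to 10.53.

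The same order of stages was seen with each of the other preparations. By the study's account these used sections of the same ovary, so they repeat the method and not the animal. The differences were 3.61 to 7.52 with SMART-Seq v4, 7.16 to 9.92 with DRaqL and SMART-Seq v4, and 3.61 to 5.51 after formalin. Every one of the 6 genes was thus at least 1 log2 higher, against 24.8%, 26.3% and 20.9% of all genes. Stages were fully separate for 6, 6 and 5 of the 6 genes, against 2.93%, 5.03% and 2.77% of all genes, with Oosp2 in formalin-fixed oocytes as the exception. Stage and library pool, the group of cDNAs joined for library preparation as numbered in the titles, coincide in part. With DRaqL and SMART-Seq v4, all 9 larger-follicle oocytes were in pool 7 and all 6 primary ones in pool 8, so that stage and pool cannot be told apart there. With SMART-Seq v4, 10 of the 11 larger-follicle oocytes were in pool 1 and the 7 primary ones in pool 2. The 1 larger-follicle oocyte of pool 2 was above all 7 primary oocytes for each of the 6 genes, by 1.89 (Oosp2) to 6.04 (Oog1) over their mean. All formalin-fixed oocytes shared pool 6, and their differences are thus within a pool.

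How low the genes stood in primary follicles differed between the sets. With DRaqL and SMART-Seq v4, Oog1 was at 0 reads in 6 of 6 primary oocytes, Oog4 had reads in 1, Oog3, Oosp1 and Oosp2 in 2 each, and Oog2 in 5. With SMART-Seq v4 alone, reads were present for Oog1 in 6, for Oog4 in 4 and for Oosp1 in 5 of 7 primary oocytes, and for the other 3 genes in all 7. In SC3-seq each gene had reads in all 14. The primary oocytes of the first of these sets held at least 467352 protein-coding reads each and shared no library pool with larger-follicle oocytes, while those with SMART-Seq v4 shared theirs with 1 such oocyte. The treatment text of primary oocyte 6 of the first set names formalin, against its other labels. Without it the stage differences of that set were 7.43 to 9.92, still without overlap, and reads were left in 1 oocyte each for Oosp1 and Oosp2.

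Among single oocytes with unusual values, the 6 genes moved together in some and apart in others. Oocyte O20 of the larger follicles was the lowest or second lowest for every gene, with Oog1 at 4.91, Oog2 at 6.85, Oog3 at 7.39, Oog4 at 5.23, Oosp1 at 8.03 and Oosp2 at 7.15, and its other oocyte genes summed to 17624 RPM, the lowest of its group. In primary oocyte O29, Oog3 and Oog4 were both at 1.22 while Oosp1 reached 6.43 and Oosp2 7.42. Primary oocyte O39 was the highest of its group for Oog1 (7.41), Oog3 (6.83) and Oosp2 (7.66).

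Across the 44 SC3-seq oocytes the Pearson r of any pair of the 6 genes lay between 0.854 and 0.970 (median 0.930), which includes the stage difference that they share. Within the 30 oocytes of larger follicles it lay between 0.581 for Oog2 with Oosp2 and 0.951 for Oog1 with Oosp1 (median 0.849). All points share their library and its depth, so these are descriptions.

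The share of the 6 genes in the sum of themselves and the 11 other oocyte genes gives their stage difference relative to oocyte RNA. It was a median of 1.91% (0.282 to 5.59%) in the 14 primary oocytes of SC3-seq and 16.9% (4.07 to 24.5%) in the 30 larger ones. The medians were 2.54% and 16.6% with SMART-Seq v4, 0.162% and 14.2% with DRaqL and SMART-Seq v4, and 4.90% and 17.6% after formalin. In each of the 4 sets the sum of the 6 genes differed more between stages than the sum of the other oocyte genes did. This does not hold for each other oocyte gene taken singly. In SC3-seq, Obox1 (5.55), Obox2 (5.55), Obox5 (5.41) and Bcl2l10 (4.75) differed within the range of the 6 genes, 4.50 to 5.79. The rest of the 11 differed less, down to −0.64 for Zp2.

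Other oocyte genes are set beside them here in 3 lists. Of the 11 other oocyte genes, 10 were at least 1 log2 higher in the larger follicles of SC3-seq, with a median difference of 4.04. The zona pellucida gene Zp2, at 12.07 in primary and 11.43 in larger follicles, was the one that was not. None of 6 oocyte transcription factor genes was that much higher and 3 were at least 1 log2 lower, with a median of −1.35. Sohlh1 differed by −5.70, Sohlh2 by −2.57 and Figla by −2.23, while Nobox differed by 0.30, Taf4b by 0.33 and Lhx8 by −0.46. Of 5 genes of the subcortical maternal complex, which the early embryo needs, Khdc3 (1.25) and Tle6 (1.21) passed 1 log2 and Nlrp5, Ooep and Padi6 did not.

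By symbol, the tables hold 15 entries that are Oosp3, Plac1 or start with Pramef or Pramel. Of these, 3 reached a mean of 2 in the larger follicles. Oosp3, the third oocyte-secreted protein gene, went from 2.65 to 7.98, a difference of 5.32 that is close to that of Oosp1. Pramef12 went from 7.53 to 8.63 and Pramef8 from 2.80 to 3.25. Plac1 stood at 0.89 and 0.68.

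The genes whose pattern was most like the mean of the 6 over the 44 oocytes, among 7220 genes with a mean of at least 4, were Gm13023 (r = 0.987), C87977 (0.985), Fbxw14 (0.982), Tcl1b4 (0.981) and Fbxw19 (0.977). Over the 30 oocytes of larger follicles, among 7580 genes, they were Gm10436 (0.994), Gm2042 (0.989), Gm13023 (0.987), Spin1 (0.977) and Gm813 (0.977). Gm10436, Gm2042, Gm13023 and C87977 share 62.3, 94.8, 20.5 and 18.7% of the Oog1 windows, so their reads cannot be fully told apart from those of Oog1. C87977 lies 9.84 kb from Oog2 and Gm13023 lies between Oog4 and Oog3. Ranked by Spearman's rho in place of Pearson's r, 1 of the first 5 and 4 of the second 5 genes were named again.

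Levels in mESCs are given for comparison, and the source of the few reads there was not tested. In the 81 mESCs the 6 genes had 7 reads in all, spread over 7 cells, with 4 for Oosp1, 2 for Oog4 and 1 for Oog1. Oog2, Oog3 and Oosp2 had reads in 0 of 81 mESCs, which allows a share of cells of up to 4.45% (95% Clopper-Pearson interval, which covers counting error only). 

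Against single granulosa cells the oocytes of larger follicles (grown oocytes in the fresh set) were higher by 6.29 to 8.92 in mean log2 (RPM+1) for every gene in the 6 sets with both cell types. The median oocyte was above each of the 57 granulosa cells of SC3-seq for 2 of the 6 genes (3.43% of all genes), above each of 34 with SMART-Seq v4 for 5 (6.99%), and above each of 39 with DRaqL and SMART-Seq v4 for 6 (6.23%). It was above each of 24 formalin-fixed cells for 5 (6.75%), above each of 70 LCM cells of the proestrus mouse for 0 (2.89%) and above each of 35 fresh cells for 6 (8.86%). The 0 rests in part on 1 neighboring LCM library with 24481 RPM of the other oocyte genes, 407 RPM of the granulosa genes and 6324 RPM of the 6 genes. Without it the median oocyte was above every granulosa cell for 3 of the 6 genes, Oog1, Oog2 and Oog3, and for 3.83% of all genes. In SC3-seq, 17 of the 57 granulosa cells exceeded the lowest oocyte, O20, for Oog1, and 1 exceeded the median oocyte. For Oog2 the numbers were 3 and 0.

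The share of single granulosa cells with reads of a gene was higher in neighboring cells for most genes and sets. For Oog1 the share was 42.9 to 82.4% of neighboring and 15.8 to 50% of non-neighboring cells in the 8 sets. Of all 161 neighboring and 169 non-neighboring cells, the numbers with reads were 90 and 40 for Oog2, 88 and 43 for Oog3, 66 and 39 for Oog4, 97 and 61 for Oosp1, and 68 and 40 for Oosp2. Of the 48 pairs of gene and set, the share was higher in neighboring cells in 44, lower in 3 and equal in 1. The mean level was higher in neighboring cells in 8 of 8 sets for each gene, by as little as 0.04 for Oosp1 and 0.20 for Oosp2 with SMART-Seq v4. For Oosp1 in fresh cells the median went the other way, at 1.77 in neighboring and 3.38 in non-neighboring cells. The study reports oocyte-mixed profiles in fresh cells too, more often in those attached to oocytes, and these cells are included. The SC3-seq position contrast is among the values that chose the genes, and cells of a set are no replicates, so no test is given. By the study's account the methods it compared used sections of the same ovary, so most sets are not separate animals.

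The widest gap was that of Oosp1 in LCM-seq, a published lysis method without DRaqL. It had reads in 14 of 17 neighboring cells (82.4%, interval 56.6 to 96.2%) and in 1 of 20 non-neighboring cells (5.00%, 0.127 to 24.9%). With DRaqL and SMART-Seq v4 the same gene was found in 7 of 20 (35%) and in 0 of 19, which allows up to 17.6%. In SC3-seq, Oosp2 was found in 17 of 31 (54.8%) and 5 of 26 (19.2%).

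The 3 pairs in the other direction were Oosp1 with SMART-Seq v4, at 5 of 17 neighboring and 6 of 17 non-neighboring cells, and 2 genes in fresh cells, Oosp1 at 7 of 14 and 13 of 21 and Oog1 at 6 of 14 and 10 of 21. Each of these intervals overlaps that of its partner. Without the library pools that also held an oocyte, the fresh shares were 2 of 8 neighboring and 0 of 7 non-neighboring cells for Oog1 and 2 of 8 and 1 of 7 for Oosp1, so that neither was lower in neighboring cells. With that choice the share in the sets from the proestrus mouse was higher in neighboring cells in 11 of 12 pairs and lower in 1 (Oog3 in fresh cells, 1 of 8 against 1 of 7). When cells were thinned to 50000 reads, leaving out 1 neighboring LCM cell and 1 fresh cell of each position that held fewer, the share was higher in neighboring cells in 47 of 48 pairs and lower in 0.

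**Figure D2:**
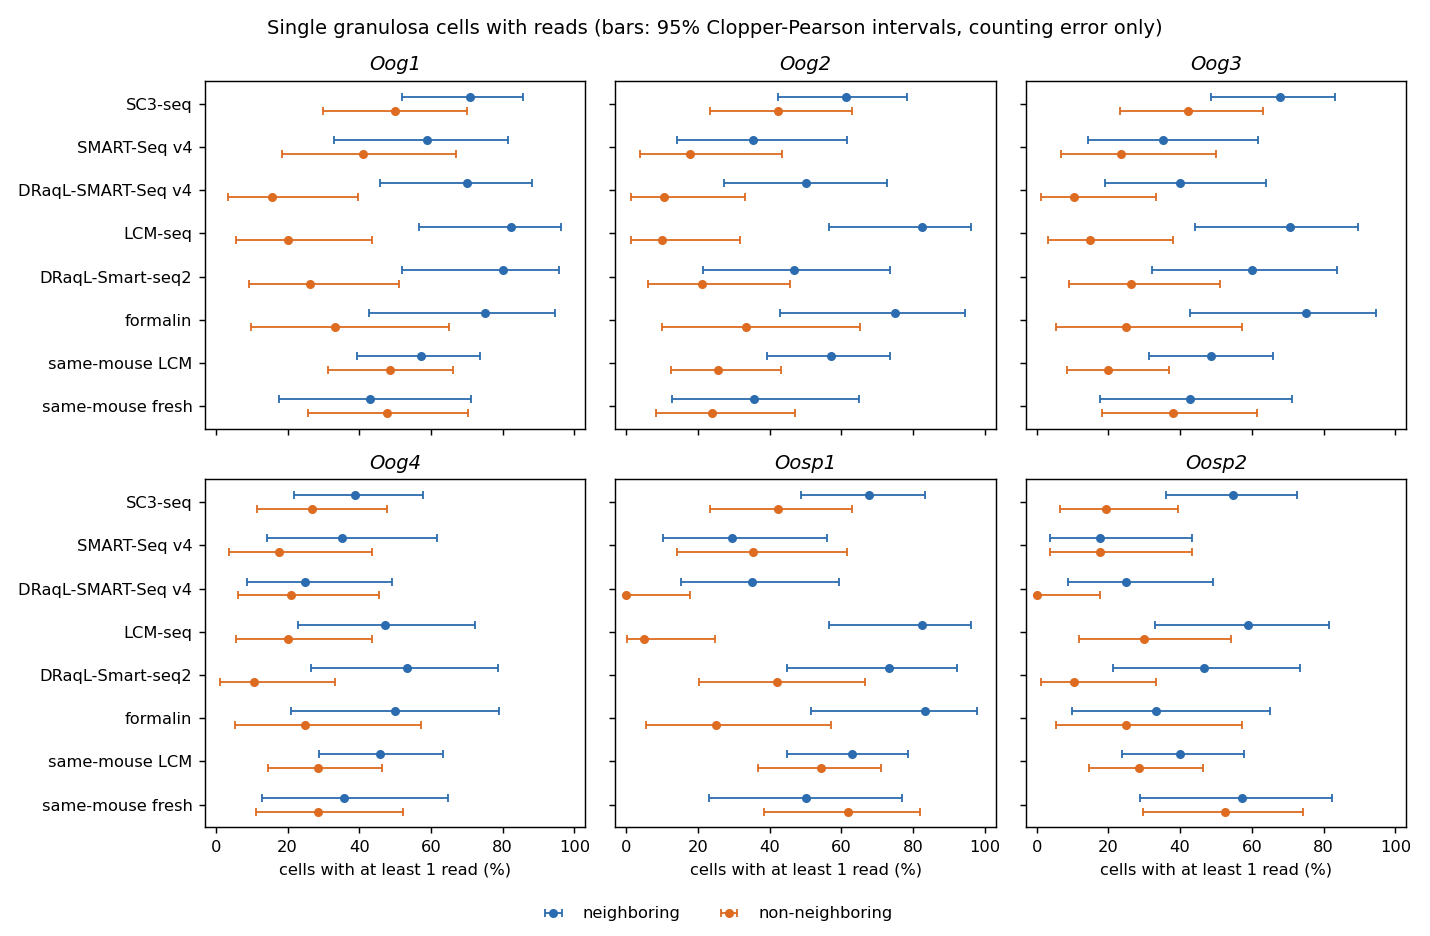
Percent of single granulosa cells with at least 1 read (horizontal axis) of each of the 6 genes in neighboring and non-neighboring cells of the 8 sets (vertical axis), with 95% Clopper-Pearson intervals. The share is higher in neighboring cells in 44 of 48 pairs.

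Other oocyte genes differed with position in the same libraries. All 11 had reads in neighboring granulosa cells of each set, and their summed level had a median of 2331 RPM in neighboring against 50.9 RPM in non-neighboring cells of SC3-seq. The medians were 1111 and 29.7 with SMART-Seq v4, 402 and 5.01 with DRaqL and SMART-Seq v4, 1422 and 29.1 with LCM-seq, 523 and 20.8 with DRaqL and Smart-seq2, 832 and 52.4 after formalin, 265 and 117 in LCM cells of the proestrus mouse, and 146 and 141 in fresh cells. The part of oocyte RNA in the granulosa values of the 6 genes was not tested. In SC3-seq, the cells numbered from GC073 on had higher medians of these genes than the earlier ones, at 6380 against 1515 RPM in neighboring and 1118 against 9.83 RPM in non-neighboring cells, and without them all 6 genes kept the higher share in neighboring cells.

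A single comparison of position has replicates that are separate samples, the pools of 10 cells. All 6 genes were higher in the 7 neighboring than in the 7 non-neighboring pools by the two-sided exact permutation test of mean log2 (RPM+1). That test was run on the 6 genes alone, so its p-values are unadjusted and no share of all genes stands beside them. The genes were also chosen in part by position in SC3-seq single cells. With edgeR's quasi-likelihood test over 9704 genes, 2 of them, Oosp1 and Oog3, passed an adjusted p of 0.05, where 0.474% of all genes (46 genes) did so in this direction. Both calls were kept in 6 of the 14 fits that left out 1 pool, and edgeR called neither gene without neighboring pool 5 (adjusted p of 0.0699 for Oosp1 and 0.138 for Oog3), neighboring pool 6 (0.0568 and 0.0709) or non-neighboring pool 3 (0.0605 and 0.0798). A pool that holds fewer transcripts per cell cannot be told apart from one that holds fewer cells of a kind. With the pool number as a block, edgeR called neither Oosp1 (adjusted p = 0.0640) nor Oog3 (0.206). The labels do not say whether pools came from separate animals or whether pools of the same number belong together. The other p-values treat the pools as unpaired and measure the spread between these pools.

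Oosp1 had 530, 232, 2281, 2144, 3062, 1732 and 590 reads in neighboring pools 1 to 7 and 23, 67, 1, 1, 1, 8 and 0 in the non-neighboring ones. In log2 (RPM+1) the former ran from 5.74 through 8.30 to 9.51 and the latter from 0 through 0.23 to 3.85. The groups did not overlap. The difference in means was 6.47 (exact permutation p = 0.000583, the smallest that the splits of 14 pools can give), and the log2 fold change from edgeR was 6.50 ± 1.21 (SE, adjusted p = 0.0208).

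Oog3 stood at 5.28, 6.82, 2.79, 7.13, 8.43, 6.53 and 4.32 in log2 (RPM+1) in neighboring pools 1 to 7 and at 1.42, 1.93, 1.12, 0, 0.43, 1.75 and 0 in the others, with 3564 and 41 reads in all. Again the groups did not overlap. The means differed by 4.95 (exact permutation p = 0.000583) and edgeR gave 6.30 ± 1.29 (SE, adjusted p = 0.0310).

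Oog1 had 257, 713, 48, 970, 1745, 692 and 268 reads in the neighboring pools and 57, 146, 1, 448, 1, 4 and 1 in the others. Here 5 of the 7 neighboring pools lay above every non-neighboring one, whose levels ran from 0.18 through 1.04 to 5.79. The difference of 4.09 had an exact permutation p of 0.00816, while the edgeR change of 3.14 ± 1.22 (SE) had an adjusted p of 0.908.

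Non-neighboring pool 4 stands out in that result. It held 448 reads of Oog1, 453 of its near copy Gm2042 and 142 of Gm10436, but 1 read of Oosp1 and 0 of Oog2, Oog3, Oog4 and Oosp2. Non-neighboring pool 1 was of another kind, with 89 reads of Oog2 and 290 of Gm13084 beside 57 of Oog1, 23 of Oosp1 and 4 to 7 of Oog3, Oog4 and Oosp2. Each of these pools was high for one oogenesin and for that gene's closest copy.

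For Oog2 the neighboring pools stood at 4.85, 3.51, 1.68, 6.10, 5.66, 5.81 and 3.10 in log2 (RPM+1) and the non-neighboring ones at 4.48, 1.14, 0, 0, 0, 0.61 and 0. Here 4 of the 7 neighboring pools exceeded every non-neighboring one. The difference was 3.50 (exact permutation p = 0.00408), with an edgeR change of 3.13 ± 1.60 (SE, adjusted p = 0.999).

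Oog4 and Oosp2 were below the low-count filter of the fit over all genes. Oog4 had 52, 41, 11, 498, 579, 0 and 100 reads against 4, 1, 0, 0, 5, 2 and 0, and its means differed by 3.34 (exact permutation p = 0.00641). Oosp2 had 0, 33, 17, 440, 951, 77 and 0 reads against 5, 2, 0, 0, 0, 2 and 0, and its means differed by 2.95 (exact permutation p = 0.0251). Neighboring pools 4 and 5 held most of the reads of both genes.

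**Figure D3:**
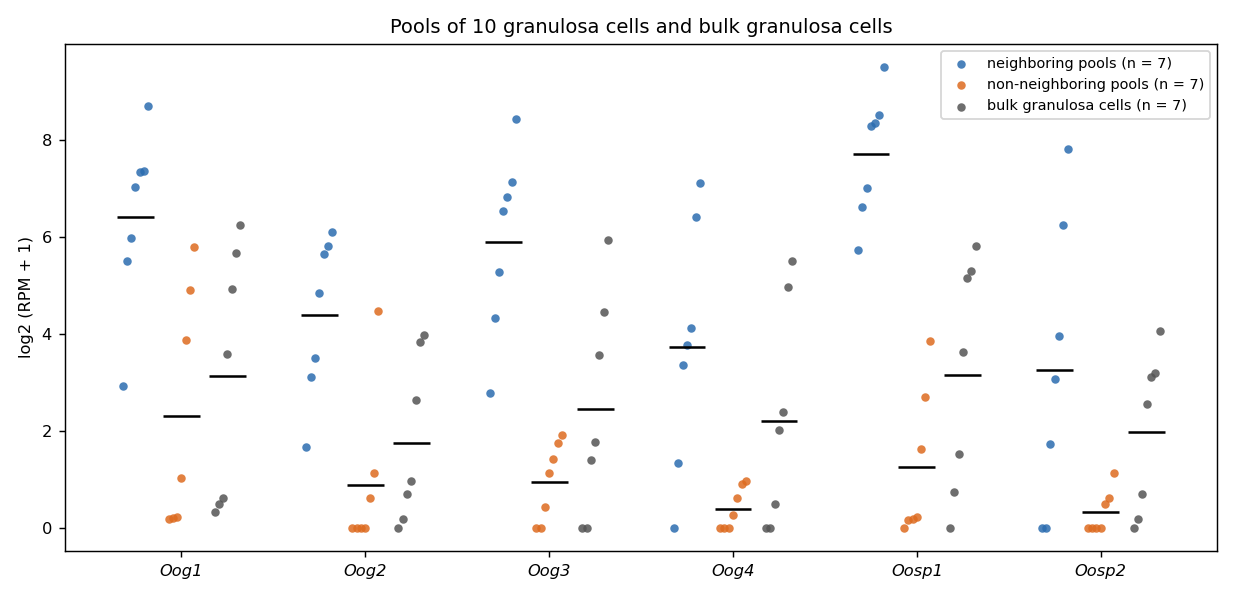
Level of each of the 6 genes as log2 (RPM+1) (vertical axis) in the 7 neighboring and 7 non-neighboring pools of 10 granulosa cells and in the 7 bulk granulosa samples; points are samples and bars are means. Oosp1 and Oog3 do not overlap between positions, while Oog1, Oog2, Oog4 and Oosp2 do. Oog2 overlaps through non-neighboring pool 1. For Oog1, neighboring pool 3 (2.93) lies below non-neighboring pools 1 (3.88), 2 (4.92) and 4 (5.79). Oog4 is at 0 in neighboring pool 6, and Oosp2 is at 0 in neighboring pools 1 and 7.

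The other oocyte genes differed between the pools as well. Of the 11, 7 were called higher in neighboring pools and their median log2 fold change was 5.95, beside −0.02 over all genes tested. Their sum was 550 to 7375 RPM in neighboring and 2.19 to 124 RPM in non-neighboring pools, all 11 having reads in both groups. The sum of the 6 genes was 185 to 1904 RPM (median 352) and 0.156 to 54.4 RPM (median 7.08). As a share of both sums the 6 genes took a median of 21% (8.87 to 37.7%) in neighboring and 17.7% (1.26 to 90.9%) in non-neighboring pools, and 16.9% in the SC3-seq oocytes of larger follicles. The part of oocyte transcripts in the pool result was not tested. Of 2 transcription factor genes and 4 maternal complex genes that passed the filter, edgeR called 0, at median log2 fold changes of 3.71 and 4.43.

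The 7 bulk granulosa samples held the 6 genes at 0.261 to 258 RPM in sum (median 36.4), beside 4.70 to 1523 RPM of the other oocyte genes. Oog1 ran from 0.33 through 3.59 to 6.25 and Oosp1 from 0 through 3.63 to 5.81. Bulk samples 3 and 4 had the highest levels, with Oog1 at 50.4 and 75.1 RPM. Per the study, some bulk samples came from early antral follicles whose oocyte was cut out of the section first. Others came from follicles of unknown stage with no oocyte in the section. The labels do not tell these kinds apart.

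**Figure D4:**
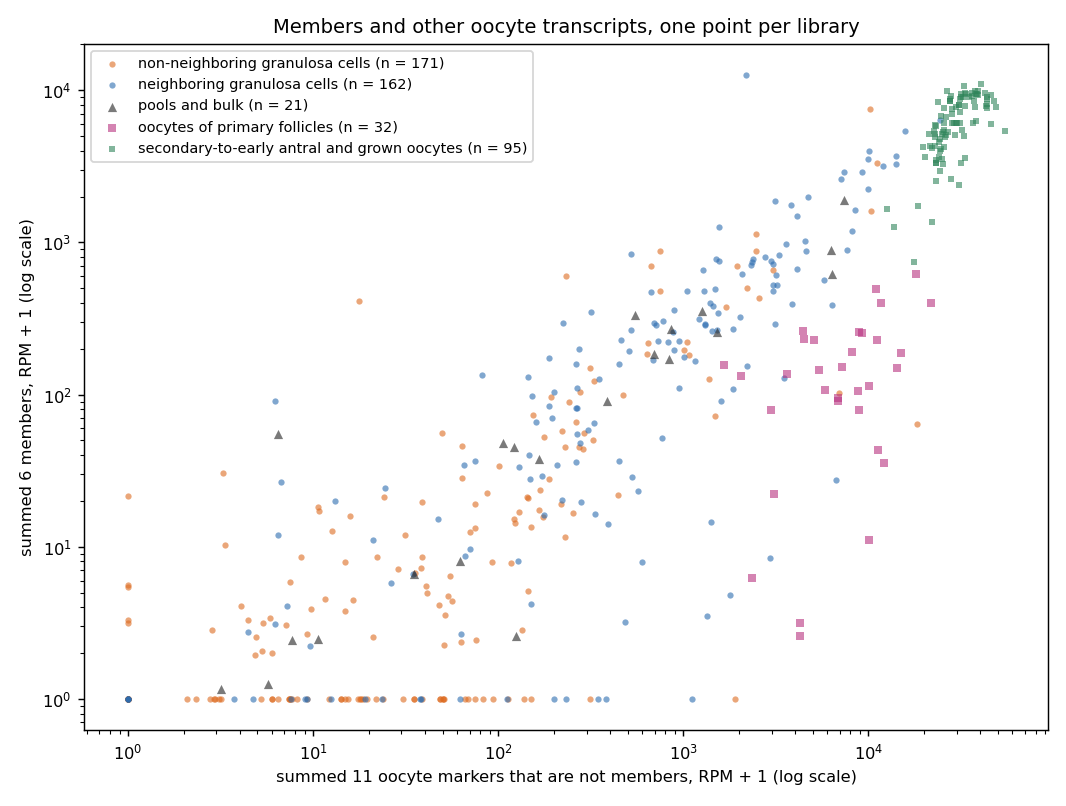
Summed RPM+1 of the 6 genes (vertical axis, log scale) against summed RPM+1 of the 11 other oocyte genes (horizontal axis, log scale), one point per library and colored by class: 32 oocytes of primary follicles, 95 libraries of secondary-to-early antral and grown oocytes, 162 neighboring and 171 non-neighboring granulosa cells, and 21 pools and bulk samples. Primary oocytes lie below the larger ones, at a median of 1.91% of both sums in SC3-seq against 16.9% in larger follicles.

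Sections of an oocyte gave like values. Between the 2 libraries of each of 8 oocytes, the absolute difference had a median of 0.18 for Oog1, 0.18 for Oog2, 0.16 for Oog3, 0.19 for Oog4, 0.38 for Oosp1 and 0.21 for Oosp2, against a median of 0.40 over 7221 genes. The largest difference was 0.81, for Oosp2. Between different oocytes the median over 28 pairs was 0.29, 0.38, 0.17, 0.34, 0.50 and 0.46 in the same order. The median between oocytes was thus above that between sections for each gene, by least for Oog3; this was not tested.

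In the pair of ovaries from 1 mouse, all 6 genes had lower means in LCM oocytes than in freshly dissociated grown oocytes. The means were 10.15 ± 0.17 (SD, n = 14) in fresh and 8.69 ± 0.90 (SD, n = 8) in LCM oocytes for Oog1, a difference of −1.46, and 10.65 ± 0.23 and 8.56 ± 0.60 for Oosp2, a difference of −2.09. Neither gene overlapped between the groups. Oog3 differed by −1.71, from 11.14 to 9.43, and 7 of its 8 LCM oocytes lay below all fresh ones. Oog2 (−0.79), Oog4 (−0.78) and Oosp1 (−0.47) differed less, and their groups overlapped. Thus 3 of the 6 genes were at least 1 log2 lower, against 14.2% of all genes. The median was −0.11 over 6841 genes and −0.89 over 10 of the other oocyte genes. Collection, the cAMP analog given to the fresh cells, follicle class and library preparation differ together between these groups and cannot be told apart.

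The levels of the 6 genes were compared with each other per length, in 5 larger-follicle oocytes with exon counts (Y-adapter libraries, 6462959 to 7865860 exon reads each). In exon reads per kb after scaling the exon reads of an oocyte to 1000000, Oosp1 was at a median of 2110 (871 to 3251), Oog1 at 704 (184 to 1190), Oog3 at 521 (222 to 668), Oosp2 at 251 (155 to 552), Oog2 at 205 (101.5 to 341) and Oog4 at 110 (44 to 196). Every neighboring pair in this order overlapped in range. The exon counts include reads that map to several places. Windows also found in other genes made up 96.7% for Oog1, 45.2% for Oog2 and 19.7% for Oog3. Their places may thus include reads of near copies, for Oog1 above all. Within an oocyte, Oosp1 was above Oog1 in 5 of 5, Oog1 above Oog3 in 4, Oog3 above Oosp2 in 4, Oosp2 above Oog2 in 2 and Oog2 above Oog4 in 5. Since most oogenesin reads lay in the last exon, the order was also taken from reads per kb of that exon alone, a choice made after the data were seen. The medians were then 2306 for Oosp1, 1399 for Oog1, 1055 for Oog3, 391 for Oog2, 309 for Oosp2 and 201 for Oog4, so that Oog2 and Oosp2 changed places, and neighbors in this order again overlapped.

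**Figure D5:**
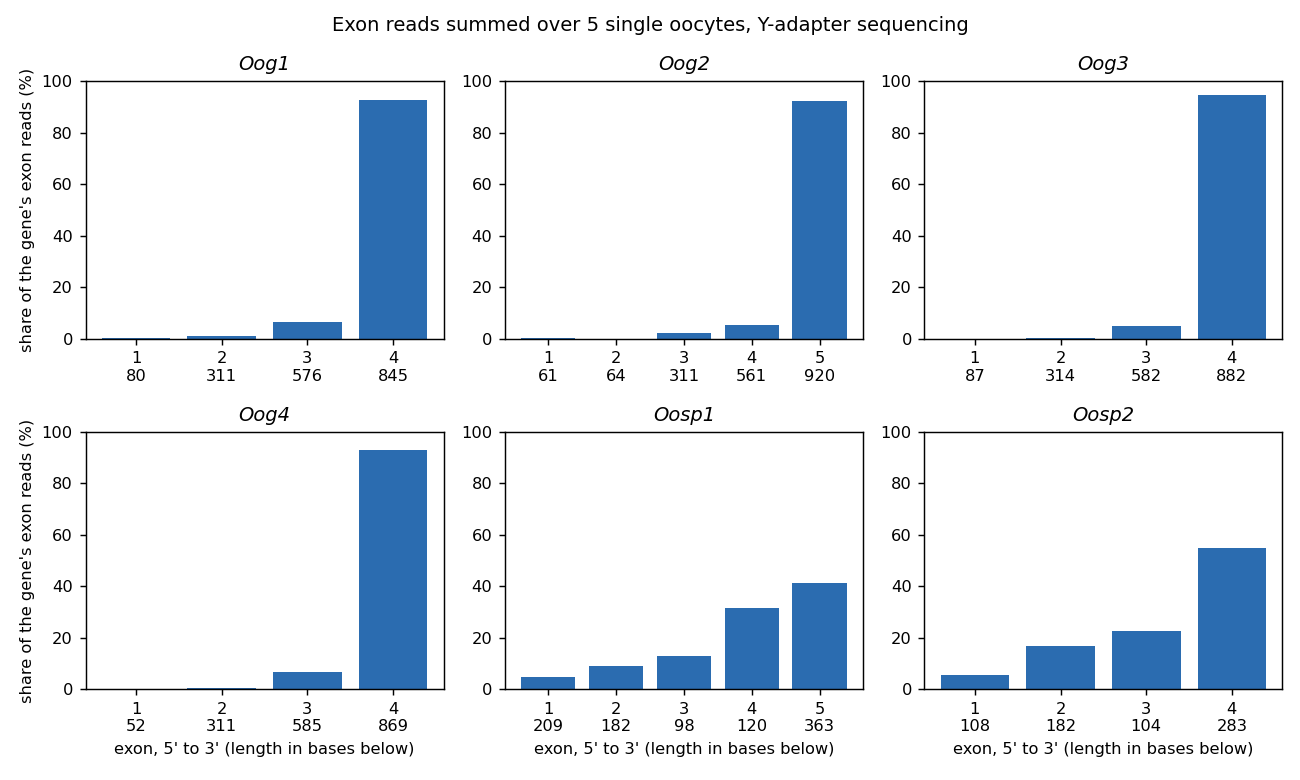
Share of each gene's exon reads (vertical axis, percent) by exon from 5′ to 3′ (horizontal axis, exon number with its length in bases), summed over the 5 Y-adapter oocytes. The last exon holds at least 92.4% of the exon reads of each oogenesin, 41.4% of those of Oosp1 and 54.8% of those of Oosp2.

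The last exon held 92.6% of exon reads for Oog1, 92.4% for Oog2, 94.8% for Oog3 and 92.9% for Oog4. For Oosp1 it held 41.4%, with 31.7% in exon 4, and for Oosp2 54.8%. The oogenesins have 4 or 5 exons in transcripts of 1812 to 1917 bases, whereas the transcripts of Oosp1 and Oosp2 have 972 and 677 bases. The mESC libraries of the same kind, 10 in number, held 3, 3, 10, 1, 10 and 1 exon reads of the 6 genes in the order Oog1 to Oosp2.

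Splice junctions followed the same division. Among junctions with at least 10 reads over the 5 oocytes, Oosp1 had 9 with 20705 reads and Oosp2 had 4 with 1451 reads. Oog3 had 2 with 526 reads, Oog1 3 with 442, Oog4 1 with 189 and Oog2 2 with 29. The most used junction of Oosp1 took 10901 reads (52.6%, 51.97 to 53.3%) and the next 6263 (30.2%). For Oosp2 the most used junction took 877 reads (60.4%, 57.9 to 62.97%). In Oog3, 503 of 526 reads fell on 1 junction (95.6%, 93.5 to 97.2%). The junction table lists no coordinates, so the exons joined are not named here.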

How the data were processed

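Read counts per gene were deposited by the authors for 562 libraries, and exon and junction read counts for 15 further libraries. The submitters' processing notes name fastp 0.20.0, cutadapt 1.16, HISAT2 2.1.0, HTSeq 0.10.0 and featureCounts 2.0.1 with build GRCm38. Per the study's methods, HTSeq counted the best match of each read for the gene tables, including reads up to 10 kb past a gene's 3′ end, and featureCounts counted exons and junctions with reads that map to several places included. How equally good matches were treated in the gene tables is not given in the sources used here. Tables of spike-in RNA were not used. No column of a table was left without a sample (0 unmapped).

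From the deposited counts, RPM was computed over the 22060 protein-coding genes and levels were taken as log2 (RPM+1), so differences of low genes are understated. The genes and gene lists were chosen with earlier results of these data known. The genes named are the 6 members; Oosp3, Plac1 and Pramef or Pramel genes with a mean of at least 2 in the larger follicles; the 5 genes with the highest Pearson r to the mean of the members over 44 and over 30 oocytes, at a mean level of at least 4; and genes of the lists where a result turned on them. Near copies, CAGCTG and genes between Oog4 and Oog3 were looked at after the values were seen.

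Single cells whose labels name no animal were treated as 1 sample a group, with ranges and 95% Clopper-Pearson intervals and no test. Pools were tested with edgeR 4.0.16 in R 4.3.3 (quasi-likelihood F-test, TMM scaling, low-count filter, Benjamini-Hochberg adjustment over 9704 genes), where the SE is the log2 fold change divided by the square root of F, and with a two-sided exact permutation test over all splits of the 14 pools. Alternatives were DESeq2 1.42.0 size factors and Wald test, no filter, all genes, the pool number as a block and leaving out each pool. Tested on simulated pools of 9313 genes, the fit recovered 6.38% of 94 genes changed by 2 log2 and 51.2% of 86 changed by 4 log2, with 1 unchanged gene called. Sequences were matched and motifs counted with Python 3.11.15. Identity used a global alignment scored 2 for a match, −1 for a mismatch, −5 to open and −1 to extend a gap.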

Additional observations from a re-analysis of the deposited data

Results flagged for a closer look

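Of 53 groups of 4 to 10 samples examined for a single sample far from the others, 5 held one by Dixon's ratio of the gap to the range. The rate of about 1 in 20 groups by chance holds for normal values in independent groups. It does not apply here, since the genes share libraries and some groups are mostly at 0 reads. Oog1 was 6.62 in LCM oocyte 8 of the proestrus mouse, with the nearest oocyte at 8.40. In the 6 primary oocytes prepared with DRaqL and SMART-Seq v4, 3 genes each had a high oocyte: Oog3 at 6.65 in oocyte 3 (nearest 1.34), Oog4 at 2.64 in oocyte 4 (nearest 0) and Oosp2 at 2.93 in oocyte 6 (nearest 0.69). These were 3 different oocytes, and the treatment text of oocyte 6 names formalin fixation, against its other labels. Oog2 was 4.48 in non-neighboring pool 1, with the nearest pool at 1.14.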

How the results depend on the processing

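Of 787 recomputed values, 602 kept their direction and call or size and 185 changed in size or call. A reversal could be recorded only for differences by stage, cell type or pool position, and 0 of those reversed. Shares of granulosa cells were compared within each position. Changes of order between positions, such as those in fresh cells described above, are therefore not counted here. The exact permutation result of each gene stayed below 0.05 in every recomputation, at most 0.042 for Oosp2 without 1 pool. The edgeR calls were less stable. The 46 genes called became 416 with DESeq2's Wald test (304 of them higher), where 4 of the 6 genes were called (Oog3, Oosp1, Oog4 and Oosp2), and 3 to 56 when 1 pool was left out, with 0 to 2 of the 6 called. None was called without neighboring pool 5 (3 genes called), neighboring pool 6 (8) or non-neighboring pool 3 (9), and 1 was called without neighboring pool 4 (13) or non-neighboring pools 1 (32), 4 (18), 5 (15) or 7 (13). The adjusted p of Oosp1 ran from 0.0123 to 0.0699 and that of Oog3 from 0.0206 to 0.138 over these fits.

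With the pool number as a replicate block, 5 genes and 0 of the 6 were called, with Oosp1 at an adjusted p of 0.0640 and Oog3 at 0.206. By edgeR with the block, 502 genes had an unadjusted p under 0.05. Deviations of same-numbered pools correlated at 0.00578 to 0.189, above 0.1 in 2 of 7 pairs. Of the neighboring pools, 3 of 7 correlated best with their own number. These values do not settle whether the numbers pair the pools, and the main fit uses no block.

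Of the stage differences, 141 recomputed values moved by less than the spread between oocytes and 14 by more. Shares of granulosa cells with reads moved outside their intervals in 79 recomputations and stayed within them in 161. Leaving out oocytes under 50000 reads was not run, since the shallowest oocyte held 133799. The causes were not tested. Depth sets a limit for granulosa cells, the shallowest having 12748 reads.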

Other observations

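The stretch of 707 kb between Oog4 and Oog3 on chromosome 4 holds 17 annotated protein-coding genes, looked at after the values of the neighbors were seen. In SC3-seq oocytes, 5 of them were at least 1 log2 higher in larger follicles: Gm13023 (6.10), Gm13084 (4.57), Gm13089 (3.87), Gm13088 (2.03) and Gm13103 (2.00). Of the 17, 12 had a mean below 1 in the larger follicles, among them Pramef6, Pramef17, Pramef25 and Pramel4. Gm13023 shares sequence with Oog1 and Gm13084 with Oog2, which leaves the source of their reads uncertain.

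Among LCM cells of the proestrus mouse, 2 granulosa libraries held more Oosp1 than any of the 127 oocyte libraries, whose highest was 12.03 in log2 (RPM+1). A neighboring cell had 885 reads of Oosp1 (12495 RPM, 13.61) with 0 to 2 reads of each of the other 5 genes and 2188 RPM of the 11 other oocyte genes. A non-neighboring cell had 409 reads (7377 RPM, 12.85) with 0 to 3 reads of each of the others and 10209 RPM of oocyte genes. Both were shallow, with 70831 and 55442 reads. Leaving them out, an alternative added after seeing the data, moved the mean Oosp1 level of either position by less than the spread between cells.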
